A study of Mus musculus with 8 samples.

Results

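The genes described here are the heat shock proteins, the J-domain (DnaJ) proteins and the numbered subunits of the cytosolic CCT chaperonin, measured in lateral septum of mouse. They were chosen by symbol alone (Hspa, Hspb, Hspd, Hspe, Hsph, Hsp90, Dnaja, Dnajb, Dnajc and Cct2 to Cct8). Of 81 matching symbols, 71 reached 1 TPM in 2 or more of the 8 libraries and were kept, among 14365 genes kept in all. TPM is the share of a transcript, per length, of each 1000000 transcripts of a library. The 71 members fell into 14 Hsp70 and Hsp110 genes, 3 Hsp90 genes, 4 Dnaja, 11 Dnajb and 24 Dnajc genes, 7 CCT subunits, 2 genes of the mitochondrial chaperonin and 6 small heat shock proteins. The other 10 symbols (Cct6b, Cct8l1, Dnajb7, Dnajb8, Dnajc22, Dnajc25, Dnajc5b, Dnajc5g, Hspb7 and Hspb9) stayed under this level. Just inside the limit stood Hspa12b and Hspb2, with 7 libraries at 1 TPM or more, and just outside it Cct6b, with a highest value of 0.750 TPM.

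All mice were C57Bl6J. Restraint-stressed (RS) mice spent 1 h in a flexible cone and, per the labels, were killed 1 h after it, while the study's methods give no such interval. Naive mice stayed in the home cage. PhosphoTrap uses an antibody to the phosphorylated form of ribosomal protein S6 (pS6), a mark of active neurons, to pull down ribosomes with their RNA (IP), which is set against RNA of the whole lysate (input). Each of the 4 groups (RS IP, naive IP, RS input, naive input) had 2 libraries, each from pooled septa of 4 to 6 mice, so that single animals were not measured.

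Chaperones bind unfolded protein and keep it from aggregating. Hsp70 works in cycles of ATP hydrolysis, which J-domain proteins start and Hsp110 proteins help to end, and Hsp90 and the CCT ring take over particular clients such as kinases, steroid receptors, actin and tubulin. When unfolded protein builds up, the transcription factor HSF1 binds heat shock elements, arrays of inverted GAA units, and raises a core set that includes Hspa1a, Hspa1b, Dnajb1 and Hsph1. Neurons are known for high constitutive levels of Hspa8 and Hsp90ab1, and several J-domain proteins serve clathrin uncoating and synaptic vesicles there.

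To show what these promoters hold, the 250 bases before each RefSeq start (build GRCm38.p6) were searched on both strands for a pair of inverted units (GAA-NN-TTC or TTC-NN-GAA) and for 3 units in a row (GAA-NN-TTC-NN-GAA or TTC-NN-GAA-NN-TTC, which contain the pairs). Hspa8, Hsp90aa1 and Hsp90ab1 were among the members without an entry and were not searched. Of the 71 members, 58 matched an entry. A pair was found in 16 of them (27.6%), against 14.55% of all genes with a promoter in the table, and 3 units were found in Dnajb6, Hspd1 and Hspe1 (5.17%, against 0.51% of all genes). The stretches below are those of Dnajb6 and of the core stress genes that held a pair, shown because targets of HSF1 are known for such units, with the units and the bases between them in capitals, 5′ to 3′ on the strand of the gene.

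Hspe1 (chr1:55088054-55088081, plus strand): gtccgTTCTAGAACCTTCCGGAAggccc

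Hspd1 (chr1:55088054-55088081, minus strand): gggccTTCCGGAAGGTTCTAGAAcggac

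Dnajb6 (chr5:29735847-29735869, plus strand): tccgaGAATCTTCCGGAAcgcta

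Hspa1a (chr17:34972248-34972265, minus strand): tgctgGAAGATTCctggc

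Hspa1b (chr17:34959330-34959347, minus strand): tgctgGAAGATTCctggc

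Hsph1 (chr5:149636357-149636374, minus strand): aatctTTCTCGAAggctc

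Hspb1 (chr5:135887797-135887834, plus strand): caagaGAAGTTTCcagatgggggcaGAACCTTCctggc

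Dnaja1 (chr4:40722339-40722356, plus strand): ctctaGAAAATTCtacga

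Hspe1 and Hspd1 lie head to head, and their entries are the same stretch read on opposite strands. The Hspa1a and Hspa1b stretches are identical. Dnajb1, the member that differed most between RS and naive IP, had no such pair in its window. A match is a run of letters and no evidence of binding. The 120 bases before its start are shown for comparison, with each single GAA or TTC in capitals, of which there were 3.

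Dnajb1 (chr8:83608055-83608174, plus strand): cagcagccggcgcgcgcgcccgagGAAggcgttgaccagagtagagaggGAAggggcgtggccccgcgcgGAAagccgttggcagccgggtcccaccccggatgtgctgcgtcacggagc

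The 8 libraries listed 17292 to 17516 genes above 0, and since TPM keeps no read number, their depth is unknown. How far both pools of a group lie apart is therefore the only error at hand. Members differed by a median of 0.0645 to 0.106 log2 units between the pools of a group, and those over 1.5-fold apart were Dnajb13 in the RS IP, Dnajb5 and Hspb2 in the RS input and Hspb3 in the naive input. Markers of choroid plexus, a tissue of the neighbouring ventricle, were far above the other groups in the RS IP: its 6 genes summed to 2068 and 2080 TPM there, 35.5 and 35.2 TPM in the naive IP, 279 and 334 TPM in the RS input and 15.3 and 16.7 TPM in the naive input, with no marker at 0 in all libraries. Ttr made up most of this sum. The 8 astrocyte markers summed to 1836 and 1799 TPM in the RS IP, 1435 and 1464 TPM in the naive IP, 1766 and 1710 TPM in the RS input and 1569 and 1549 TPM in the naive input. The 7 blood cell markers, mostly haemoglobins, summed to 4760 and 4873 TPM in the RS IP, 5692 and 5500 TPM in the naive IP, 725.9 and 841.9 TPM in the RS input and 817.4 and 802 TPM in the naive input. Markers of oligodendrocytes (11 genes) summed to 3100 and 3173 TPM in the RS IP, 2988 and 2929 TPM in the naive IP, 10220 and 9481 TPM in the RS input and 7734 and 7680 TPM in the naive input, and the 7 septal neuron markers to between 2899 and 3880 TPM in the 8 libraries. The naive and RS tables also carry different years in the gene symbols that a spreadsheet had turned into dates, so condition and handling of the files cannot be told apart. In bulk tissue, fewer cells of a type and less RNA per cell cannot be told apart either.

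Chaperone RNA was abundant. The members took 0.953% and 0.923% of all TPM in the RS IP, 0.870% and 0.872% in the naive IP, 1.36% and 1.31% in the RS input and 1.14% in both naive inputs. Hspa8, the constitutive cytosolic Hsp70, was the most abundant member (mean 3073 TPM over the 8 libraries), followed by Hsp90ab1, the constitutive cytosolic Hsp90 (mean 1307 TPM). The Hsp70 and Hsp110 genes summed to 3414 and 3350 TPM in the RS IP, against 3047 and 3023 TPM in the naive IP. In the RS input they summed to 5182 and 4775 TPM, against 3795 and 3781 TPM in the naive input. Hspa8 made up most of both sums.

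The comparison of RS with naive mice within the IP asked which chaperone RNAs were held more by pS6 ribosomes after restraint. Dnajb1, the stress-inducible J-domain partner of Hsp70 (chromosome 8, 83608193 to 83612653, plus strand), was the member with the largest difference. It had 108.5 and 120.1 TPM in the RS IP, against 57.7 and 58.25 TPM in the naive IP. Both RS pools stood well above both naive pools, and the ratio of the means was 1.97. The log2 change on the log2(TPM + 1) scale was 0.96 (SE 0.06, limma adjusted p = 0.000225, n = 2 pools per group). It lay at the 99.2th percentile of all genes tested, and it passed under all 15 alternative settings (log2 change 0.89 to 1.04). Less than 1% of the 50-base stretches of its transcripts (0.4%) occurred in other genes, so that few of its reads could be shared. Markers of choroid plexus (5 of 6 higher), astrocytes (4 of 8 higher) and endothelial and mural cells (1 of 7 tested higher) moved in the same comparison. Their part in the Dnajb1 difference was not tested.

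Hsp90ab1 was the other member that passed the test in the IP. It had 1143 and 1107 TPM in the RS IP, against 1005 and 952 TPM in the naive IP. The pools did not overlap, but the change was small, 0.20 on the log2 scale (SE 0.04, limma adjusted p = 0.0436). This call was lost after median-of-ratios scaling (adjusted p = 0.108), with the replicate number as a block (0.0648) and after a correction for transcript length and GC content (0.0715). It was also lost without either RS IP, naive IP or naive input pool (adjusted p of 0.0969 to 0.249), and held in 4 of the 15 alternatives.

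These were 2 of 71 members higher and 0 lower by limma. Of all genes tested, 1.98% were higher and 0.327% lower, so 2 members are near the background. At an unadjusted p under 0.05, 16 members were higher and 5 lower, and each of the 15 alternatives called 1 to 4 higher and 0 lower. The share of all genes at an unadjusted p under 0.05 was not computed, so no shift of the members is read from those counts. The median member changed by 0.05 on the log2 scale, against 0.0075 for all genes.

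Of the 13 core genes set for naming, these 2 were the only ones called in the IP. The others did not pass the test in the IP. Hspa8 had 2801 and 2769 TPM in the RS IP, against 2480 and 2454 TPM in the naive IP (log2 change 0.17, SE 0.04, limma adjusted p = 0.0779). Its pools did not overlap, and the call was gained when either RS input pool was left out (adjusted p = 0.00698 and 0.00666). Hsph1, an Hsp110 that exchanges the nucleotide of Hsp70, had 89.6 and 86.1 TPM in the RS IP, against 72.5 and 80.0 TPM in the naive IP (log2 change 0.20, limma adjusted p = 0.230). Hspa1a, an inducible Hsp70, had 5.79 and 5.48 TPM in the RS IP, against 4.34 and 4.75 TPM in the naive IP (adjusted p = 0.436 by limma). Hspa1b had 3.14 and 3.62 TPM in the RS IP, against 2.35 and 3.00 TPM in the naive IP (adjusted p = 0.596 by limma).

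Both inducible Hsp70 genes thus stood at a few TPM in every library. They share 66.3% (Hspa1a) and 62.3% (Hspa1b) of their 50-base stretches with other genes, mostly with each other, so how reads were divided between them is uncertain. Dnaja1 (log2 change 0.07), Hsp90aa1 (0.11), Hspb1 (0.27), Hspd1 (0.01), Hspe1 (-0.14), Hspa5 (-0.06) and Hsp90b1 (0.05) had adjusted p of 0.252 to 0.978 by limma in this comparison.

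By class, the CCT subunits had log2 changes of 0.05 to 0.16 in the IP, and the 14 Hsp70 and Hsp110 genes of -0.12 to 0.43, with none called. Hspa4, an Hsp110 family member, stood at the upper end. It had 14.5 and 14.0 TPM in the RS IP, against 9.44 and 11.3 TPM in the naive IP (limma adjusted p = 0.0846). Dnajb13, known from sperm flagella and cilia, had the lowest change of all members (-0.73, limma adjusted p = 0.144), with 3.45 and 1.81 TPM in the RS IP, against 4.37 and 5.36 TPM in the naive IP.

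**Figure D1:**
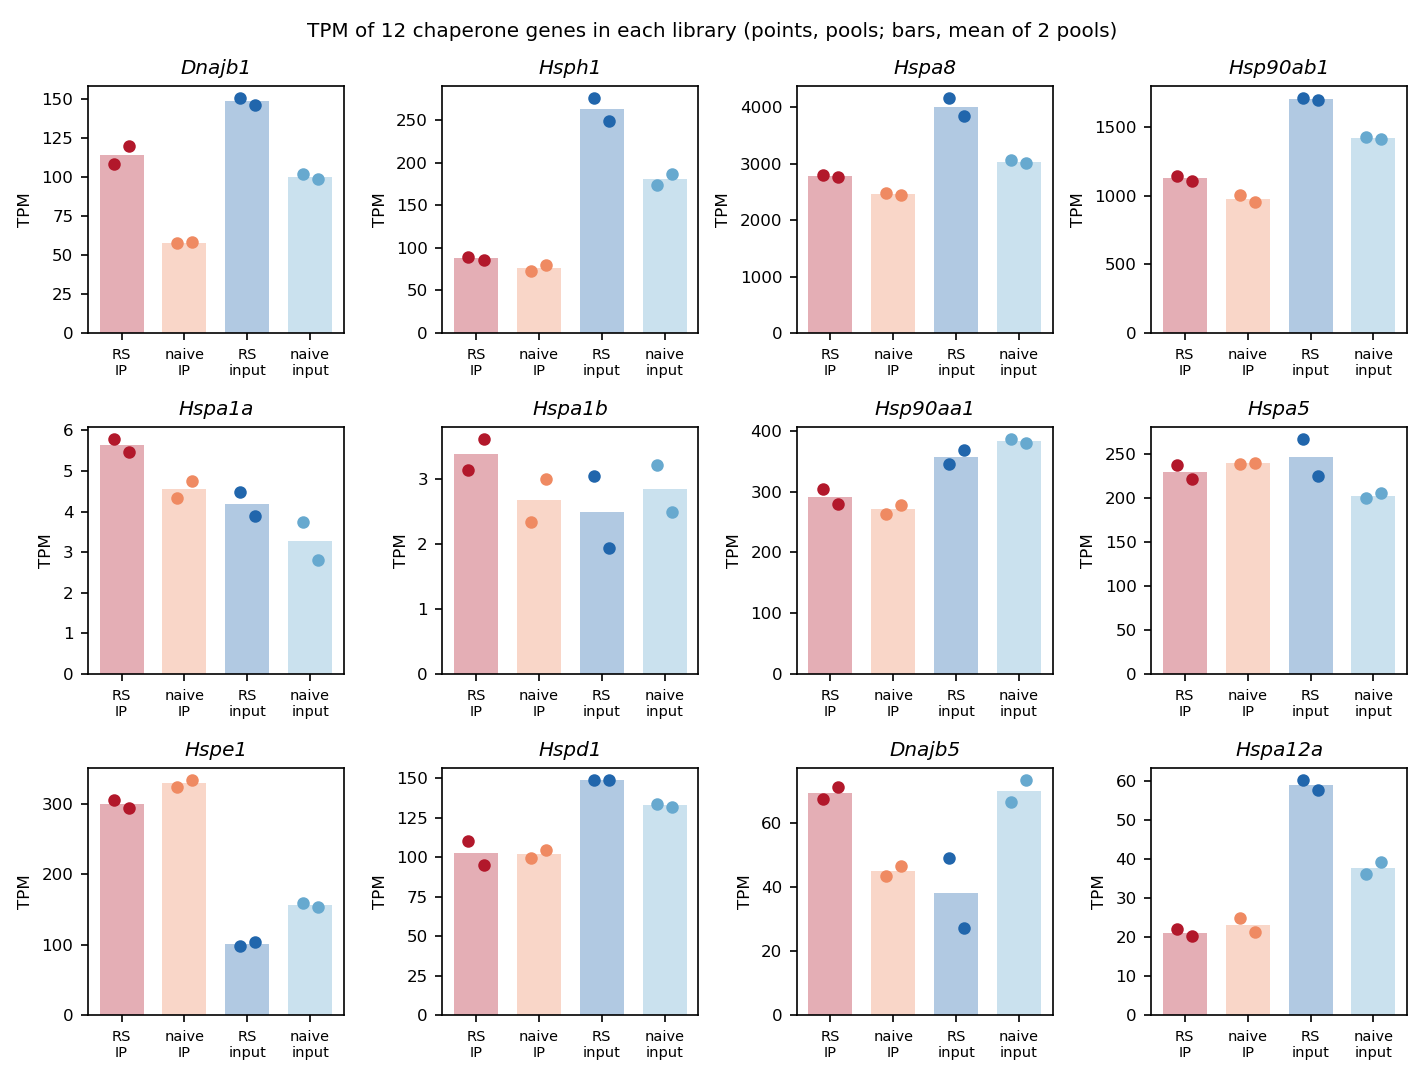
TPM of 12 chaperone genes in each of the 8 libraries. Points are the 2 pools of a group, bars their mean, groups run from RS IP to naive input, and the y axes start at 0; Dnajb1 stands at 108.5 and 120.1 TPM in the RS IP against 57.7 and 58.25 TPM in the naive IP, and one RS input pool of Dnajb5 stands at 27.2 TPM, the other at 49.0.

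The comparison of RS with naive mice in the input asked the same of the whole lysate. Here 20 of 71 members were higher and 6 lower by limma, against 20.3% and 8.21% of all genes tested. After median-of-ratios scaling 6 were higher and 13 lower, against 7.92% and 12.3% of all genes. As the counts moved with scaling, no trait of the members as a set is read from them. Dnajb1 was higher here as well, at 150.9 and 146.5 TPM in the RS input, against 101.9 and 98.7 TPM in the naive input. Its pools did not overlap, and its log2 change was 0.56 (SE 0.06, adjusted p = 0.00154). Hsph1 had 276 and 249 TPM in the RS input, against 174 and 186.5 TPM in the naive input (log2 change 0.54, SE 0.07, limma adjusted p = 0.00263). Hspa8 had 4168 and 3850 TPM in the RS input, against 3057 and 3007 TPM in the naive input (log2 change 0.40, SE 0.04, limma adjusted p = 0.00131). All 3 stood apart from the naive pools without overlap, and all 3 passed in every one of the 15 alternatives.

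Hspa8 shares 74.8% of its 50-base stretches with other genes, mostly with the processed copy Gm15459, and part of its reads may have been counted elsewhere. Hsph1 shares 0%. Hspa12a, a divergent Hsp70 family member, had 60.4 and 57.7 TPM in the RS input, against 36.2 and 39.35 TPM in the naive input (log2 change 0.63, SE 0.09, limma adjusted p = 0.00317). This was the largest rise of any member in the input, and it too passed in all 15 alternatives.

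Some members of the endoplasmic reticulum were called higher in the RS input and others were not. Dnajb11, a co-chaperone of the ER Hsp70, had 73.2 and 69.0 TPM in the RS input, against 49.2 and 54.7 TPM in the naive input (log2 change 0.45, SE 0.08, limma adjusted p = 0.00560). It passed in all 15 alternatives. Dnajc3, an ER J-domain protein that also restrains the kinase PERK, had 12.9 and 11.6 TPM in the RS input, against 8.53 and 8.22 TPM in the naive input (log2 change 0.50, limma adjusted p = 0.0217), and held in 10 of 15. Hspa5, the ER Hsp70 itself (BiP), had 267.5 and 225.4 TPM in the RS input, against 199.8 and 205.6 TPM in the naive input (log2 change 0.28, limma adjusted p = 0.0348), and held in 6 of 15. The pools of these genes did not overlap between the groups, but the 2 RS pools of Hspa5 differed more from each other than the naive pools did. Hsp90b1, the ER Hsp90, had 166.5 and 165.9 TPM in the RS input, against 157.6 and 166.5 TPM in the naive input, values that overlapped (limma adjusted p = 0.754). Dnajb9, Dnajc10, Dnajc1 and Hspa13, which also serve the ER, were not called (limma adjusted p of 0.0670 to 0.601).

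Of the other members that were higher in the RS input, Hspa4l, an Hsp110 family member (log2 change 0.50), Dnajc21, which serves ribosome biogenesis (0.46), Hspa2 (0.38) and Dnaja4 (0.33) had adjusted p of 0.0111 to 0.0369 by limma. Hsp90ab1 had 1712 and 1699 TPM in the RS input, against 1426 and 1413 TPM in the naive input (log2 change 0.26, SE 0.04, limma adjusted p = 0.00323). Dnaja1, a J-domain partner of Hsp70 in the cytosol, had 239.8 and 222.3 TPM in the RS input, against 189.8 and 194.7 TPM in the naive input (log2 change 0.26, limma adjusted p = 0.0450). This call held in 5 of 15 alternatives and was lost with the replicate block (adjusted p = 0.0603). Cct7 and Cct8 were the 2 of 7 CCT subunits that were called, with log2 changes of 0.29 and 0.24. The remaining called members were Dnajc11, Dnaja3, Dnajb6, Dnajc5 and Dnajc7. Dnaja4 shares 51.9% of its 50-base stretches with other genes, Dnajb6 41.9% and Dnaja1 30.6%, and part of their reads may have been counted elsewhere. In all, 22 members share more than 10%.

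The inducible pair was again low. Hspa1a had 4.48 and 3.89 TPM in the RS input, against 3.73 and 2.80 TPM in the naive input (limma adjusted p = 0.163). Hspa1b had 3.06 and 1.95 TPM in the RS input, against 3.21 and 2.49 TPM in the naive input, where the pools overlapped (limma adjusted p = 0.585). Hsp90aa1, the inducible cytosolic Hsp90, had 345.8 and 368.4 TPM in the RS input, against 386.9 and 379.8 TPM in the naive input (log2 change -0.10, limma adjusted p = 0.222), and became a lower call after median-of-ratios scaling (-0.25, adjusted p = 0.0363).

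Dnajb5, a close relative of Dnajb1, was the member with the largest fall in the RS input. It had 49.0 and 27.2 TPM in the RS input, against 66.7 and 73.6 TPM in the naive input (log2 change -0.92, SE 0.22, limma adjusted p = 0.0181). The 2 RS pools were 1.8-fold apart and both lay below the naive pools. Without RS input pool 1 the change was -1.33, and without RS input pool 2 it was -0.51, with adjusted p of 0.000625 and 0.0101. Leaving out naive input pool 1 or 2 ended the call (limma adjusted p of 0.0654 and 0.0878). Hspe1, the lid of the mitochondrial chaperonin, had 97.4 and 103.2 TPM in the RS input, against 158.7 and 153.4 TPM in the naive input (log2 change -0.63, SE 0.05, limma adjusted p = 0.000723). It passed in all 15 alternatives, while its partner Hspd1, which shares the promoter printed above, had 148.9 and 149.1 TPM in the RS input, against 133.8 and 131.9 TPM in the naive input (log2 change 0.16, limma adjusted p = 0.132). These 2 genes overlap on opposite strands, where reads without strand cannot be told apart, and share 44.8% of their 50-base stretches each with other genes, mainly with copies elsewhere in the genome. The other members that were lower were Hspb11 (-0.54), a subunit of intraflagellar transport, Dnajb3 (-0.56), Dnajc19 (-0.34), a factor of mitochondrial import, and Dnajc9 (-0.25), a histone chaperone. After the length and GC correction Hspb11 (-0.18, adjusted p = 0.447), Dnajc19 (-0.0099, adjusted p = 0.929) and Dnajb3 were no longer called.

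The balance of calls in the input depended on scaling. In the deposited TPM the median of all genes was 0.13 higher in RS than in naive input on the log2 scale, and that of the members 0.17. Median-of-ratios scaling brought the median of all genes to 0.0014, and then 6 members were higher (Hspa12a, Dnajb1, Hsph1, Hspa8, Dnajb11 and Cct7, all among the 20) and 13 lower, against 7.92% and 12.3% of all genes. Leaving out RS input pool 1, naive input pool 1 or naive input pool 2 each left 9 members higher and 2 lower. Without RS input pool 2, 15 were higher and 9 lower. The calls of all genes, higher and lower alike, also fell in each of these fits, so no trait of the members is read from these counts. Choroid plexus markers (4 of 6 higher, 0 lower) and oligodendrocyte markers (8 of 11 higher, 1 lower) moved in the same comparison. So did those of astrocytes (5 of 8 higher, 1 lower), neurons (4 of 7 higher, 1 lower), microglia (3 of 7 higher, 0 lower), blood cells (1 of 7 higher, 2 lower), endothelial and mural cells (0 higher, 4 lower of 7 tested) and ependymal cells (0 higher, 2 lower of 6), and their part in these results was not tested.

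**Figure D2:**
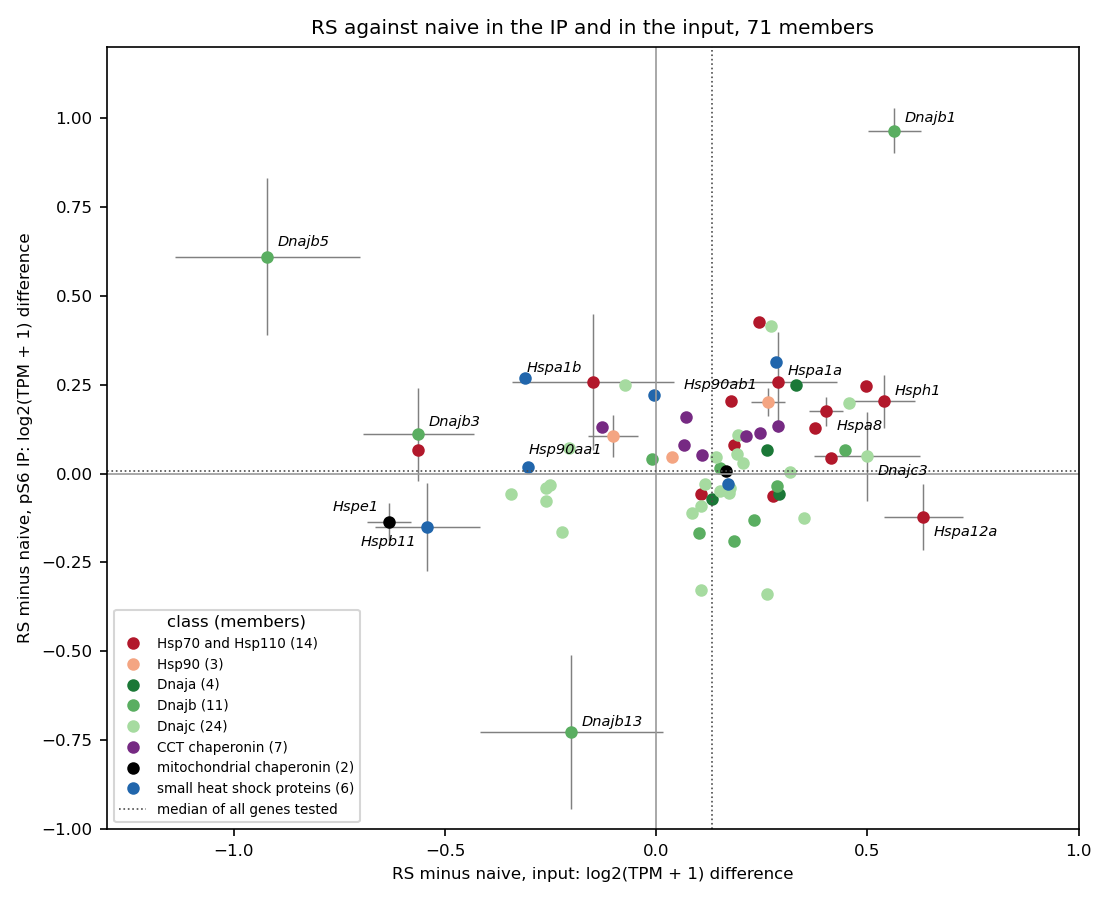
Log2(TPM + 1) change of RS against naive mice in the input (x axis) and in the IP (y axis) for the 71 members, coloured by class. Bars on named genes are the SE of limma, dotted lines the median of all genes tested; Dnajb1 stands apart at 0.56 and 0.96, and Dnajb5 at -0.92 and 0.61.

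The comparison of IP with input asked which chaperone RNAs were enriched or depleted on pS6 ribosomes. In RS mice, 12 of 71 members were higher and 49 lower in the IP, against 17.8% and 54.9% of all genes tested. In naive mice, 9 were higher and 47 lower, against 17.4% and 49.2% of all genes. The median member had a log2 change of -0.59 in RS and -0.46 in naive mice, against -0.42 and -0.32 for all genes, and these offsets of all genes were taken away by median-of-ratios scaling. After it, the RS IP had 21 higher and 30 lower members (33.4% and 31.2% of all genes), and the naive IP 18 and 27 (30.9% and 28.7%). The calls higher in the deposited TPM were all kept, and those lower after scaling were all among those lower before. Oligodendrocyte markers (10 of 11 lower in RS and 11 of 11 in naive mice) and blood cell markers (6 of 7 and 7 of 7 higher) moved in the same comparisons. So did the other lists, given as higher and lower in RS, then in naive mice. Microglia had 0 and 5, then 1 and 3 of 7, and ependymal cells 1 and 4, then 0 and 4 of 6. Choroid plexus had 3 and 0, then 1 and 1 of 6, and astrocytes 4 and 2, then 4 and 3 of 8. Neurons had 2 and 3, then 3 and 2 of 7. Endothelial and mural cells had 2 and 1, then 1 and 2 of 7 tested. The part of these markers in the members' changes was not tested.

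The CCT ring, which folds actin and tubulin, was lower in the IP as a whole: 7 of 7 subunits in RS mice (log2 changes -1.07 to -0.59) and 7 of 7 in naive mice (-0.94 to -0.58). Cct8 had 152.7 and 138.6 TPM in the RS IP, against 305.8 and 306.3 TPM in the RS input. In naive mice it had 129.8 and 138.9 TPM in the IP, against 257.1 and 259.2 TPM in the input. Cct2 had 73.25 and 86.6 TPM in the naive IP, against 143.7 and 144.9 TPM in the naive input. After scaling, 5 of 7 subunits stayed lower in RS and 7 of 7 in naive mice. Tcp1, the first subunit of the same ring and outside the symbols of the rule, was lower by 0.59 in RS and by 0.64 in naive mice on the log2 scale (limma adjusted p of 1.50e-05 and 1.94e-05).

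Hsph1 was among the most depleted members. It had 89.6 and 86.1 TPM in the RS IP, against 276 and 248.8 TPM in the RS input (log2 change -1.57, SE 0.07, limma adjusted p = 1.75e-06). In naive mice it had 72.5 and 80.0 TPM in the IP, against 173.9 and 186.5 TPM in the input (log2 change -1.23, limma adjusted p = 8.62e-06). These differences were called in all 15 alternatives, as were those of Dnajc18 (-1.58 in RS and -1.36 in naive mice), Dnajc27 (-1.19 and -0.98), Dnajc7 (-1.11 and -0.98) and Dnajc5 (-1.06 and -0.88). Their sizes shrank under scaling and under the length and GC correction: the smallest changes in RS and naive mice were -0.94 and -0.80 for Hsph1, -0.79 and -0.79 for Dnajc18, -0.43 and -0.44 for Dnajc27, -0.60 and -0.60 for Dnajc7 and -0.16 and -0.21 for Dnajc5. Dnajc5 is cysteine string protein, a chaperone of synaptic vesicles. Dnajc6, auxilin, which recruits Hspa8 to clathrin coats, changed by -1.04 and -0.96, and the RS change was -0.23 after a length and GC correction (adjusted p = 0.0640). Dnajc28 was lower by 1.38 in the RS IP, and Dnajb2, a neuronal J-domain protein tied to ubiquitin, was lower by 1.02 in the naive IP on the log2 scale. Dnajc14 was lower by 0.86 in the naive IP. Hspa12a changed by -1.44 in RS and -0.69 in naive mice, and Dnajb13 by -1.36 and -0.83 (all called by limma). Dnajc13, an endosomal J-domain protein under the mean level of 5 TPM used for naming and picked after its values were seen, changed by -1.26 and -1.41.

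The 4 Dnaja genes were lower in both conditions, with log2 changes of -0.9995 to -0.63 in RS and -0.80 to -0.44 in naive mice. After scaling, 2 of 4 stayed lower in each condition. The 3 Hsp90 genes were lower too, Hsp90ab1 by -0.60 and -0.54, Hsp90b1 by -0.41 and -0.43 and Hsp90aa1 by -0.29 and -0.50. The scaled change of Hsp90aa1 in RS mice was 0.22 and passed as higher (adjusted p = 0.0212), and that of Hsp90b1 was 0.09 (adjusted p = 0.308), so that the direction of these 2 depended on scaling. After scaling, 0 of the 3 stayed lower in RS mice and 1 of 3 in naive mice. Hsp90aa1 shares 58.5% of its 50-base stretches with other genes, mostly with Gm12346, and part of its reads may have been counted elsewhere. Dnajb1 was lower by 0.38 in RS and by 0.78 in naive mice on the log2 scale (limma adjusted p = 0.000777 and 2.58e-05). After scaling its change was 0.13 in RS mice (adjusted p = 0.0993) and it was still lower in naive mice. Hspa8 was lower by 0.52 in RS mice and by 0.30 in naive mice, and neither was called after scaling (-0.0125 in RS mice, adjusted p = 0.802, and 0.085 in naive mice, adjusted p = 0.106).

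A smaller set was higher in the IP. Hspe1 had 305.6 and 293.5 TPM in the RS IP, against 97.4 and 103.2 TPM in the RS input (log2 change 1.57, SE 0.05, limma adjusted p = 5.93e-07). In naive mice it had 324.0 and 334.1 TPM in the IP, against 158.7 and 153.4 TPM in the input (log2 change 1.07, limma adjusted p = 4.44e-06). Hspd1 went the other way, at -0.54 in RS and -0.38 in naive mice, although its scaled changes were near 0 (-0.028 and 0.0009).

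Dnajc15, a J-domain protein of the mitochondrial inner membrane, had 350.4 and 308.3 TPM in the RS IP, against 112.1 and 137.5 TPM in the RS input (log2 change 1.40, SE 0.10, limma adjusted p = 7.39e-06). In naive mice it had 334.4 and 342.0 TPM in the IP, against 145.2 and 152.8 TPM in the input (log2 change 1.18). Dnajc19 of the same membrane changed by 0.72 and 0.44, Dnajc24, which takes part in diphthamide synthesis, by 0.70 and 0.52, and Dnajc4 by 0.63 and 0.30 (all called in both conditions by limma). After the length and GC correction neither Dnajc19 (0.0556 in RS and 0.0731 in naive mice, adjusted p of 0.408 and 0.288) nor Dnajc4 (0.0715 and -0.0471, adjusted p of 0.574 and 0.718) was called.

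The 6 Hspb members, classed by symbol as small heat shock proteins, were the class highest in the IP. In RS mice 4 of 6 were higher and 0 lower, and in naive mice 2 of 6 were higher and 0 lower. Hspb11, counted here by its symbol, is a subunit of intraflagellar transport. Cryab, a small heat shock protein outside the symbols of the rule, went the other way. Its mean was 509 TPM in the RS IP, against 829 TPM in the RS input. In naive mice it was 481 TPM in the IP, against 893 TPM in the input (log2 change -0.89, limma adjusted p = 6.69e-06). Hspb8, the partner of Bag3, had 66.45 and 61.6 TPM in the RS IP, against 32.4 and 39.3 TPM in the RS input (log2 change 0.82, limma adjusted p = 9.59e-05). Hspb11 changed by 1.09 and 0.70. Hspb1 had 11.8 and 11.95 TPM in the RS IP, against 6.26 and 7.50 TPM in the RS input (log2 change 0.72, limma adjusted p = 0.000451). In naive mice it had 9.40 and 10.04 TPM in the IP, against 8.55 and 8.93 TPM in the input (log2 change 0.14, limma adjusted p = 0.288). Hspb1 shares 60.4% of its 50-base stretches with other genes, mostly with Hsp25-ps1. After the length and GC correction, 1 of 6 stayed higher in each condition.

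Hspa5 was higher in the naive IP, at 238.9 and 240.5 TPM, against 199.8 and 205.6 TPM in the naive input (log2 change 0.24, SE 0.08, limma adjusted p = 0.0264). In RS mice it had 237.2 and 221.8 TPM in the IP, against 267.5 and 225.4 TPM in the input, and its pools overlapped (log2 change -0.10, limma adjusted p = 0.291, or 0.41 with adjusted p = 0.00117 after scaling). Hspa1a was higher in the IP in RS (log2 change 0.36, limma adjusted p = 0.0488) and in naive mice (0.39, adjusted p = 0.0400), calls that held in 4 and 7 of 15 alternatives.

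**Figure D3:**
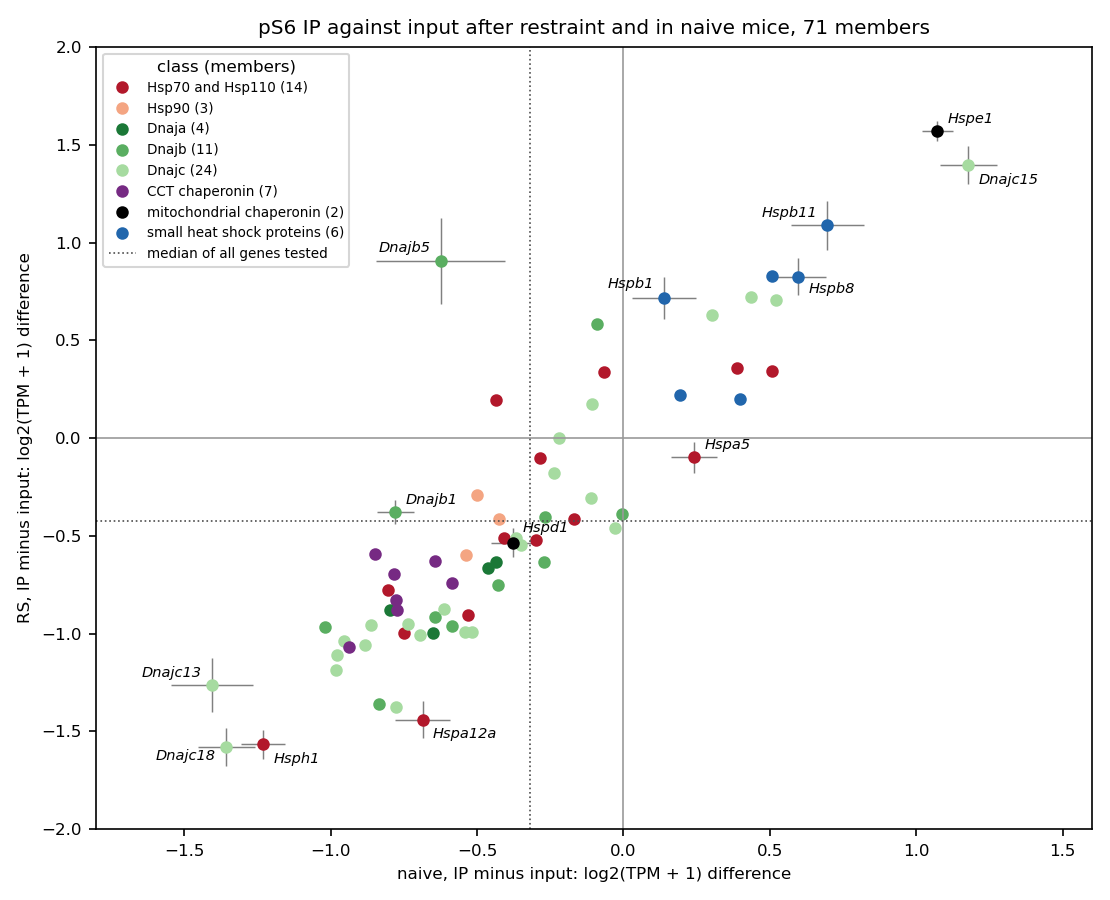
Log2(TPM + 1) change of IP against input in naive (x axis) and RS mice (y axis) for the 71 members, coloured by class. Bars on named genes are the SE of limma and dotted lines the median of all genes tested; Hspe1 and Dnajc15 lie at the upper right, Hsph1 and Dnajc18 at the lower left, and Dnajb5 stands apart with 0.91 in RS and -0.62 in naive mice.

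The members differed in length, and the change between IP and input moved with it. Over the 71 members, the log2 change and the log of the length of 1 annotated transcript per gene had a Pearson's r of -0.59 in RS and -0.56 in naive mice (across genes, which share libraries and are not replicates), against -0.53 and -0.40 over the 14203 genes with a length. Of the 12 members under 1500 nt, the RS IP had 8 higher and 2 lower. Of the 59 longer ones, 4 were higher and 47 lower. The change of RS against naive input ran the other way, with an r of 0.48 over the members and 0.45 over all genes. The short members held 0 higher and 4 lower calls, the longer ones 20 and 2. Calls of all genes were not counted by length, so no trait of the members is read from these counts. Hspe1 has a transcript of 774 nt and Hspd1 one of 2423 nt. Dnajc15 was an exception, higher in the IP with an annotated transcript of 6193 nt. The part of length in these results was not tested beyond the correction named above. With that correction, the RS IP against its input kept 14 members called higher and 30 called lower. Among the 14203 genes fitted that way, these calls numbered 3893 and 4410. For the naive IP the members had 8 and 30 such calls, against 3659 and 4210 for all genes. For RS against naive input they had 9 and 7, against 901 and 943. No trait of the members is read from these counts either.

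**Figure D4:**
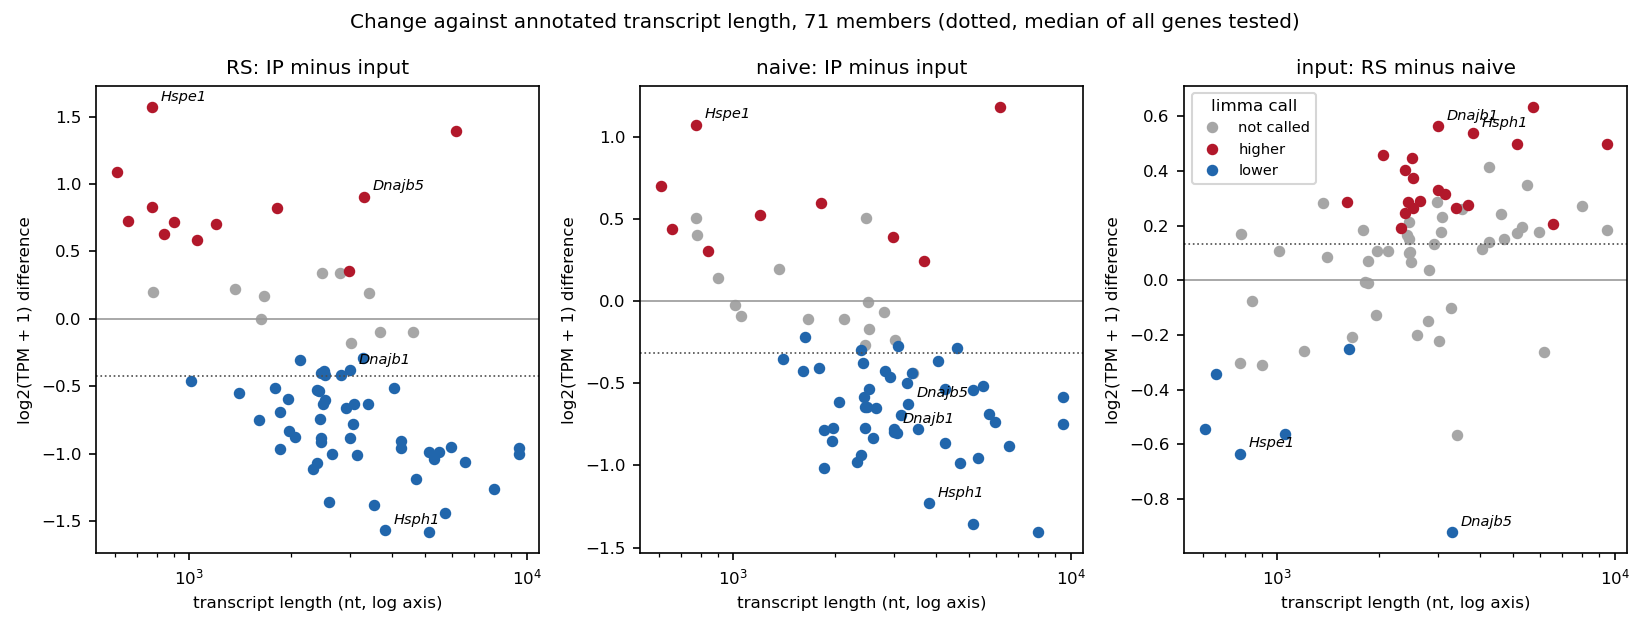
Log2(TPM + 1) change against the length of 1 annotated transcript (nt, log axis) for the 71 members, for IP against input in RS and naive mice and for RS against naive input. Points are coloured by limma call and the dotted line is the median of all genes tested. Of the 12 members under 1500 nt, 8 were higher in the RS IP and 4 lower in the RS input. Calls of all genes were not counted by length.

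The last comparison asked whether the ratio of IP to input differed between RS and naive mice, as an interaction term. It passed for 5 of 71 members, 3 with a greater and 2 with a smaller ratio in RS mice, against 3.29% and 3.46% of all genes tested. With the pool as a block, which joins the input and IP of the same mice, 0 and 0 members passed (limma, adjusted p of 0.0589 to 0.102 for the 5 genes). At an unadjusted p under 0.05 without the block, 11 members had a greater and 16 a smaller ratio. The share of all genes at that level was not computed, so no shift of the members is read from these counts. Leaving out any IP library or any naive input library also left 0 and 0. Markers with a smaller ratio in RS mice were 4 of 11 for oligodendrocytes, 2 of 7 each for microglia and neurons and 1 of 7 for blood cells, and those with a greater ratio 2 of 6 for choroid plexus, 2 of 8 for astrocytes, 2 of 7 tested for endothelial and mural cells and 1 of 6 for ependymal cells. Their part in these results was not tested.

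Dnajb5 had the largest difference. Its IP to input change was 0.91 in RS mice, from 67.6 and 71.3 TPM in the IP and 49.0 and 27.2 TPM in the input, and -0.62 in naive mice, from 43.6 and 46.7 TPM in the IP and 66.7 and 73.6 TPM in the input. The difference of 1.53 (SE 0.31, limma adjusted p = 0.0336) became 1.94 without RS input pool 1 and 1.12 without RS input pool 2, and its call was lost when any of the other 6 libraries was left out (adjusted p of 0.0936 to 0.105). In the IP its RS pools stood above the naive pools (log2 change 0.61, limma adjusted p = 0.221), and in the input, where the difference was called, they stood below.

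Hspe1 had a difference of 0.50 (SE 0.07, limma adjusted p = 0.0187) and Dnajb1 one of 0.40 (SE 0.09, adjusted p = 0.0420). For Hspe1 the input was lower in RS mice and the IP did not pass the test, while for Dnajb1 both IP and input were higher in RS mice. Hspa12a had a difference of -0.75 (SE 0.13, limma adjusted p = 0.0239), with 22.0 and 20.3 TPM in the RS IP, against 24.9 and 21.4 TPM in the naive IP, and the higher input values given above. Dnaja3, a mitochondrial J-domain protein, had one of -0.35 (SE 0.08, limma adjusted p = 0.0492), with 98.7 and 102.9 TPM in the RS IP, against 104.0 and 106.0 TPM in the naive IP. In the input it had 209.2 and 196.0 TPM in RS mice, against 159.8 and 171.2 TPM in naive mice. The 5 comparisons share libraries, so their calls for 1 gene are not independent of each other.

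Genes that work with these chaperones were counted from 4 lists. In the list of 38 other HSF1 pathway and co-chaperone genes, 36 were tested. In the IP 1 was higher in RS than in naive mice and 0 lower, against 1.98% and 0.327% of all genes. Bag3, a co-chaperone that HSF1 induces, had 3.81 and 4.54 TPM in the RS IP, against 2.87 and 1.47 TPM in the naive IP (log2 change 0.74, limma adjusted p = 0.1995). Fkbp5, a glucocorticoid-responsive partner of Hsp90, had a change of -0.35 in the IP (limma adjusted p = 0.108). Its mean was 9.61 TPM in the RS IP, against 12.5 TPM in the naive IP. In the input its mean was greater in RS mice, at 29.3 TPM against 19.8 TPM in naive mice.

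In the input, 11 of the 36 were higher and 1 lower in RS mice, against 20.3% and 8.21% of all genes. After scaling the shares of all genes were 7.92% and 12.3%, and the counts of the 4 lists were not computed under it. Stip1, which links Hsp70 to Hsp90, was higher by 0.29 (adjusted p = 0.00429) and Hsbp1, a binding protein of HSF1, lower by 0.31 (adjusted p = 0.00177). Between IP and input, 2 of the 36 were higher and 30 lower in RS mice, and 3 higher and 28 lower in naive mice. Of all genes, 17.8% were higher and 54.9% lower in RS mice, and 17.4% and 49.2% in naive mice. The median of the list was -0.61 in RS and -0.62 in naive mice, against -0.42 and -0.32 for all genes. Stip1 changed by -1.23 and -1.03, and Sgtb, a neuronal co-chaperone, by -1.40 and -1.07. The interaction gave 1 greater ratio and 2 smaller ones, against 3.29% and 3.46% of all genes. The smaller ones were Fkbp5 at -0.89 (limma adjusted p = 0.0187) and Tomm34 at -0.33 (adjusted p = 0.0457). Fkbp5 passed in 7 and Tomm34 in 2 of 14 alternatives, and neither passed with the replicate block (adjusted p of 0.0573 and 0.0961).

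Against 1.98% and 0.327% of all genes, 1 of 27 other ER chaperone and unfolded protein response genes was higher and 0 lower in RS than in naive IP. It was Ppp1r15a, a phosphatase subunit that ends the block of translation after stress, with 45.7 and 53.5 TPM in the RS IP, against 34.1 and 36.9 TPM in the naive IP (log2 change 0.47, limma adjusted p = 0.0408). This call held in 4 of 15 alternatives and was lost with the replicate block (adjusted p = 0.0636) and with any library left out. In the input 7 were higher and 4 lower, against 20.3% and 8.21% of all genes. The transcription factors Atf4 (-0.46, limma adjusted p = 0.00774) and Ddit3 (-0.33, adjusted p = 0.0111) were among the lower. Atf4 had 228.5 and 284.1 TPM in the RS input, against 348.8 and 354.3 TPM in the naive input. Its ratio of IP to input was greater in RS mice by 0.83 (limma adjusted p = 0.0188), which passed in 7 of 14 alternatives and not with the replicate block (adjusted p = 0.0515). Between IP and input, 4 were higher and 19 lower in RS mice and 4 higher and 17 lower in naive mice. Of all genes, 17.8% were higher and 54.9% lower in RS mice, and 17.4% and 49.2% in naive mice. Sec61b changed by 1.36 and 0.88 and Xbp1 by -1.14 and -0.94. The interaction gave 3 greater ratios and 0 smaller ones, against 3.29% and 3.46% of all genes.

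Of 13 folding genes beside the CCT ring, which hold prefoldin subunits that hand clients to CCT, the RS IP against its input had 6 higher and 7 lower, and 6 higher and 6 lower in naive mice. Prefoldin subunits differed among themselves: Pfdn6 changed by 1.14 and 0.91, and Pfdn2 by -0.93 and -0.77. Between RS and naive mice, 0 were called in the IP by limma, and 1 was higher and 4 lower in the input, with Pfdn5 at -0.74 (adjusted p = 0.00160) and Pfdn1 at -0.33 (adjusted p = 0.00465). The interaction gave 2 greater ratios and 0 smaller ones. Of 12 other mitochondrial import and folding genes tested, the RS IP against its input had 3 higher and 3 lower, and 3 higher and 5 lower in naive mice. Pam16 changed by 0.88 and 0.31, and Grpel2, an exchange factor of mitochondrial Hsp70, by -1.16 and -0.86. In the input of RS against naive mice 1 was higher (Clpx, a mitochondrial unfoldase, at 0.41) and 2 lower. In the IP 0 were called, and the interaction gave 1 greater ratio and 0 smaller ones. For both lists, the shares of all genes between IP and input were 17.8% higher and 54.9% lower in RS mice. In naive mice they were 17.4% and 49.2%. For RS against naive mice they were 20.3% and 8.21% in the input and 1.98% and 0.327% in the IP. For the interaction they were 3.29% and 3.46%.

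Calls of RS against naive mice were also counted by promoter. Of the 16 with a pair, 0 were called in the IP, and in the input 4 were higher and 1 lower, with medians of 0.10 and 0.16 on the log2 scale. Of the 42 members searched without a pair, 1 was higher in the IP, and in the input 12 were higher and 5 lower, with medians of 0.05 and 0.18. Over all genes, 1.98% were higher and 0.327% lower in the IP, and 20.3% and 8.21% in the input. No trait of either set is read from these counts. Dnajb1 belongs to the members without a pair, and Hsph1, Hspe1 and Hspd1 to those with one. Hsp90ab1, the other member called in the IP, was not searched and is in neither count.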

How the data were processed

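RNA of lateral septum was measured by PhosphoTrap in 8 libraries, an IP and an input of each of 2 RS and 2 naive pools. The labels give a further replicate per group, which was not analysed here. The submitters' processing notes name STAR and DESeq2 with build mm10, the paper's methods name TopHat and Cufflinks, and which made the deposited values is not given in the sources used here. The authors deposited values under the name FPKM, but each column summed to 1000000, so they were treated as TPM (a change from the planned unit). Depth is unknown, and 26 symbols that a spreadsheet had turned into dates (0.148% to 0.283% of TPM) were left out.

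Genes at 1 TPM or more in at least 2 libraries (14365) were fitted as log2(TPM + 1) with limma 3.58.1 in R 4.3.3, with 4 group means over all 8 libraries, a trended prior and two-sided tests, adjusted by Benjamini-Hochberg over all genes and called under 0.05. A fold change on this scale understates the change of low genes. Nothing says that pools of a group came from separate experiments, so p-values measure the spread between these pools. The script was tested on simulated data.

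Column headers give the input and IP of a pool the same number, so these pairs come from the same mice, while naive and RS pools differ. The deviations of same-numbered libraries correlated at -0.0458 (RS) and -0.0637 (naive).

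A rule picked the genes to name in each comparison. It took 13 core genes, and up to 10 called members in each direction by size of change with a mean of at least 5 TPM. It also took up to 3 genes of each list by test statistic. Not every gene it picked is given in every comparison, so an unnamed gene did not always rank lower. Other genes were chosen after their values were seen. The values of 1 listed gene are not reported here. Members and lists were chosen with earlier results of these data known. Shared stretches, lengths and GC content came from GENCODE transcripts and promoters from RefSeq (GRCm38.p6). Alternatives were the pseudocount (0.1), the filter (none, or 5 TPM), median-of-ratios scaling, the replicate block, only the 4 libraries compared, and each library left out, where a lone pool is assumed to vary like the other groups. The length and GC correction was chosen after seeing the data.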

Additional observations from a re-analysis of the deposited data

Results flagged for a closer look

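For 5 members the ratio of IP to input differed between RS and naive mice by the interaction term of limma. The difference on the log2 scale was 1.53 for Dnajb5 (adjusted p = 0.0336), 0.50 for Hspe1 (0.0187) and 0.40 for Dnajb1 (0.0420), a greater ratio in RS mice. It was -0.35 for Dnaja3 (0.0492) and -0.75 for Hspa12a (0.0239), a smaller ratio. With the pool as a block none of the 5 passed by limma (adjusted p of 0.0611 for Dnajb5, 0.0589 for Hspe1, 0.0956 for Dnajb1, 0.102 for Dnaja3 and 0.0643 for Hspa12a). Of 14 alternatives, Dnajb5 and Hspe1 passed in 6, Dnajb1 and Hspa12a in 4 and Dnaja3 in 2.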

How the results depend on the processing

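Median-of-ratios scaling gave 21 members higher and 30 lower in the RS IP against its input, and 18 and 27 in the naive IP. The shares of all genes were 33.4% and 31.2%, and 30.9% and 28.7%. For RS against naive mice it gave 1 and 0 in the IP (1.98% and 0.494% of all genes) and 6 and 13 in the input (7.92% and 12.3%). The interaction had 4 greater and 1 smaller ratios (4.57% and 1.3% of all genes). Under the length and GC correction, 30 members were called lower in each IP against its input. Of the 14203 genes fitted that way, 4410 (RS) and 4210 (naive) had this call. For RS against naive IP, 1 member was called higher, beside 288 of all genes. For RS against naive input, 9 members were, beside 901 of all genes. Smaller ratios numbered 0 among the members and 147 among all genes. In the RS IP against its input, the change turned positive under scaling and under the correction for Dnajb1 (0.1294 and 0.1304), Hsp90aa1 (0.2183 and 0.2252), Hspa5 (0.4117 and 0.4902) and Hsp90b1 (0.0937 and 0.0514). In naive mice it did so for Hspa8 (0.085 and 0.0549) and, under scaling, Hspd1 (0.0009), and turned negative under the correction for Dnajc4 (-0.0471). The cause was not tested.

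The replicate block paired the input and IP of a pool only for IP against input and for the interaction. There it gave 0 greater and 0 smaller ratios and ended, among others, the Hspa1a calls between IP and input. For RS against naive mice the block was the replicate number, which joins pools of different mice. With it 1 member was higher in the IP, and the Dnaja1 call in the input, among others, was lost. Without a filter 1 member was higher in RS against naive IP, and the interaction gave 1 and 0. The interaction gave 3 greater and 1 smaller ratios with the pseudocount of 0.1, and 4 and 4 with the filter at 5 TPM. Over all genes these were 446 and 451 of 14365, and 577 and 692 of 10676. Leaving out 1 library gave 1 to 4 members higher in RS against naive IP, 9 to 20 higher and 2 to 9 lower in RS against naive input, and 0 to 3 greater and 0 to 5 smaller ratios. The calls of all genes changed in these fits too, so no trait of the members is read from these ranges. Depth is unknown, so the counting error of genes at a few TPM, such as Hspa1a and Hspa1b, cannot be estimated.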
